A study of Mus musculus with 8 samples.

Results

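The C/EBP transcription factors were followed in mouse MLL-AF9 leukaemia cells after induced deletion of Runx1 and Cbfb. The family was taken as 5 genes, Cebpa, Cebpb, Cebpd, Cebpe and Cebpg, chosen by name. All 5 had exactly 1 probe set annotated to a single gene, so 5 of the 19938 genes measured are described here. The cells derived from c-Kit(+) bone marrow of Runx1/Cbfb double floxed mice and carried both MLL-AF9 and CreERT2, a recombinase that 4-hydroxytamoxifen (4OHT) switches on, together with puromycin resistance. They grew in M3434 cytokine-enriched methylcellulose. The Control group (Runx1/Cbfb-intact) received EtOH and the Runx1Cbfb-KO group received 4OHT at 1 µM, each for 24 h. Each group held 4 arrays, from 2 clones with 2 biological replicates each. A set is the Control and the 4OHT culture of 1 clone and replicate number, which gives 4 sets. Every culture, the controls included, carried the floxed alleles, MLL-AF9 and CreERT2, so an effect of 4OHT or of active Cre cannot be told apart from that of gene loss.

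C/EBP proteins bind DNA as dimers through a basic region and a leucine zipper, and members can pair with one another. C/EBPα directs progenitors into the granulocyte and monocyte lineages and is known to be needed for the onset of MLL-fusion leukaemia in mice. RUNX1 is known to bind an enhancer of Cebpa in myeloid cells. C/EBPε acts later, in the making of neutrophil granules, while C/EBPβ and C/EBPδ are known for emergency granulopoiesis and inflammation. C/EBPγ lacks an activation domain of its own and serves mainly as a dimer partner.

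Promoter letters were read from RefSeq (GRCm38.p6) to show the DNA next to the member that fell most and next to its neighbour. Cebpa and Cebpg are neighbours on chromosome 7 and are read in opposite directions. The gene table lists 2 genes in or across the gap between them, the long non-coding RNA gene Gm35611 and Gm45095, which overlaps the start of Cebpg. The table held promoters for 3 of the 5 members, and those of Cebpa and Cebpg are printed 5′ to 3′ as the 250 bases that end just before the start. Capitals mark CCAAT, read on either strand.
Cebpa (chr7:35119043-35119292, plus strand): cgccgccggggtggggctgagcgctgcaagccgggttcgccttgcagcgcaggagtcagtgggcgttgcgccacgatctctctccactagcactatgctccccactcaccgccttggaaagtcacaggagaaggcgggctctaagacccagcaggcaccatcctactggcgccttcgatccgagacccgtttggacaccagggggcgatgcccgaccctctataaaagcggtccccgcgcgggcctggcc
Cebpg (chr7:35056567-35056816, minus strand): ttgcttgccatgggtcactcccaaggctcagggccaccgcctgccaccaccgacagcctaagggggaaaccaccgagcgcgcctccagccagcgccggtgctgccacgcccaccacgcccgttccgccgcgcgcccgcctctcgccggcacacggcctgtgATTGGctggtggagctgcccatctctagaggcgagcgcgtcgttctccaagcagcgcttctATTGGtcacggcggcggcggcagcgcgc
The RUNX core was searched as TGTGGT and TGCGGT and the C/EBP site as TTGCNNAA, on both strands. None of these letters occurs in the 250 bases of Cebpa, Cebpb or Cebpg. Of all 32851 promoters in the table, 18.6% held either RUNX core, 9.56% held TTGCNNAA and 33.8% held CCAAT. The Cebpg promoter held CCAAT at 2 places, whose letters begin 89 and 28 bases before the start, both read on the opposite strand. The Cebpa and Cebpb promoters held none. Enhancers lie outside this window and were not analysed here.

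Values are probe-set levels on the log2 scale, so a difference of 1 is a doubling, and levels of different genes cannot be compared because probes differ in brightness. The test is limma's moderated test over all 19938 genes with the set as a block, two-sided, with Benjamini-Hochberg adjustment and a threshold of 0.05. SE is the moderated SE of that fit. The p-values set each change against a spread between these 4 sets, which come from only 2 clones. Moderation draws that spread toward the one of genes at a like level, with 9.72 prior beside 3 residual degrees of freedom. Where a gene's own sets spread more widely, as for Cebpa (SD of set differences 0.24), the moderated SE is smaller than those sets alone would give. Array medians ranged from 6.26 to 6.39. The highest was that of the clone 2, replicate 2 culture labelled deleted, beside 6.29 in its Control and at most 6.30 in any other array. Over all genes, 0.953% passed in either direction and 0.471% were lower. The median log2 difference was 0.00, with quartiles of -0.04 and 0.04. The Runx1 probe set rose in the arrays labelled Runx1Cbfb-KO by 0.52 ± 0.04 on the log2 scale (SE over 4 sets; limma adjusted p = 1.64e-05), against its label, while Cbfb was at -0.18 ± 0.05 (adjusted p = 0.128). Where the probes lie relative to the deleted exons is not given in the sources used here, so these signals do not check the deletion, and the cultures are called labelled deleted.

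Cebpa and Cebpe fell in the cultures labelled deleted, and the remaining 3 of the 5 family members did not pass in either direction. The fall was 1.58-fold for Cebpa and 1.27-fold for Cebpe. Cebpb stood 1.17-fold lower, just short of the threshold. Cebpd and Cebpg differed least. In bulk RNA, fewer cells that express a gene and less RNA per cell cannot be told apart.

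Cebpa, the lineage-directing member, was measured by probe set 10552140. In clone 1 its Control levels were 9.55 and 9.84 in replicates 1 and 2, against 9.14 and 9.29 in the cultures labelled deleted. In clone 2 the Control levels were 8.93 and 9.07, against 8.21 and 8.11. Both cultures labelled deleted of a clone lay below both of its controls, but across clones the groups overlapped, since the clone 1 cultures labelled deleted still stood above the clone 2 controls. Mean levels were 9.35 ± 0.42 for Control and 8.69 ± 0.61 for the cultures labelled deleted (SD, n = 4 each). The log2 difference was -0.66 ± 0.08 (SE, n = 4 sets; 95% interval -0.83 to -0.49; limma adjusted p = 0.00128), which left 63.2% of the Control level. All 4 sets were lower, by -0.41 and -0.55 in clone 1 and by -0.71 and -0.97 in clone 2. Of all genes, 6.51% were lower in 4 of 4 sets. By unadjusted p, Cebpa ranked at place 19 among all genes.

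Cebpe, which drives the late steps of granulocyte maturation, was measured by probe set 10419850. Its clone 1 levels were 9.91 and 9.93 in Control cultures and 9.47 and 9.51 in those labelled deleted. In clone 2 they were 10.41 and 10.33 in Control cultures and 10.19 and 10.05 in those labelled deleted. As for Cebpa, the groups were apart within each clone and overlapped across clones. Mean levels were 10.15 ± 0.26 for Control and 9.80 ± 0.37 for the cultures labelled deleted (SD, n = 4 each). The log2 difference was -0.34 ± 0.05 (SE, n = 4 sets; 95% interval -0.45 to -0.23; limma adjusted p = 0.00406). The set differences were -0.45 and -0.43 in clone 1 and -0.21 and -0.28 in clone 2. The calls of Cebpa and Cebpe ended without the replicate block (adjusted p = 1 for both), without the variance trend (0.0747 and 0.124) and with all probe sets tested (0.207 and 0.226), and that of Cebpe also with clone as the only covariate (0.0865). Both held without any single set.

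Cebpb, the member of emergency granulopoiesis (probe set 10478890), was lower in 4 of 4 sets, as were 6.51% of all genes, but missed the threshold. Its clone 1 levels were 9.32 and 9.21 in Control cultures and 9.14 and 8.97 in those labelled deleted, and its clone 2 levels were 9.50 and 9.45 against 9.20 and 9.27. The groups did not overlap within either clone. The log2 difference was -0.23 ± 0.05 (SE, n = 4 sets; 95% interval -0.34 to -0.12; limma adjusted p = 0.0582). The set differences were close together, from -0.18 to -0.30. The gene passed with array weights (adjusted p = 0.00808), after quantile normalization (0.0373), among genes above the median level (0.0441) and without the set of clone 2, replicate 2 (0.0125). In the other 13 of 17 alternatives Cebpb did not pass. Among these were median centring (0.187), no variance trend (0.240) and the fit without clone 1, replicate 2 (0.415). Cebpa, Cebpb and Cebpe were the 3 members whose cultures labelled deleted lay below the controls within each clone, an arrangement that 2.09% of all genes showed.

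Cebpd, an acute-phase member (probe set 10433885), had Control levels of 7.31 and 7.46 in clone 1 and 7.37 and 7.48 in clone 2. In the cultures labelled deleted they were 7.49 and 7.50 in clone 1 and 7.57 and 7.50 in clone 2. All 4 cultures labelled deleted lay above all 4 controls, although by as little as 0.02 in a set. Of all genes, 1.17% had groups that did not overlap in either direction. The log2 difference of 0.11 ± 0.07 (SE, n = 4 sets; 95% interval -0.05 to 0.27; limma adjusted p = 1) did not pass. The sets of replicate number 1 were at 0.18 and 0.20 and those of replicate number 2 at 0.04 and 0.02.

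Cebpg, the dimer partner next to Cebpa (probe set 10562416), had clone 1 levels of 8.59 and 8.55 in Control cultures and 8.72 and 8.48 in those labelled deleted. Its clone 2 levels were 8.37 and 8.38 in Control cultures and 8.12 and 8.25 in those labelled deleted. The groups overlapped in clone 1 and were apart in clone 2. The log2 difference was -0.08 ± 0.07 (SE, n = 4 sets; 95% interval -0.23 to 0.07; limma adjusted p = 1), and 3 of 4 sets were below 0. Without clone 1, replicate 1 it was -0.15 and without clone 2, replicate 1 it was -0.03. Any change of Cebpg on the scale of the Cebpa fall lies outside this interval.

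**Figure D1:**
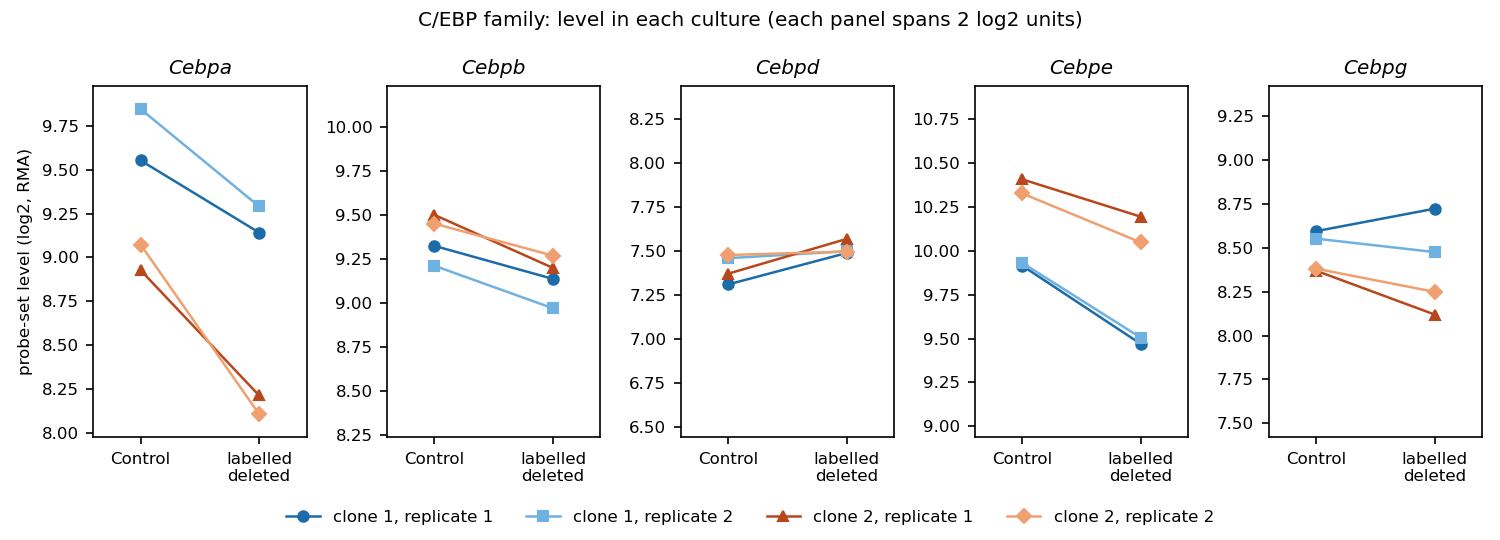
Probe-set level (log2) of each C/EBP gene in the 8 cultures, with a line from the Control to the labelled deleted culture of each set; every panel spans the same number of log2 units. All 4 lines fall for Cebpa, Cebpb and Cebpe, and the clones swap order between Cebpa, higher in clone 1, and Cebpe, higher in clone 2.

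**Figure D2:**
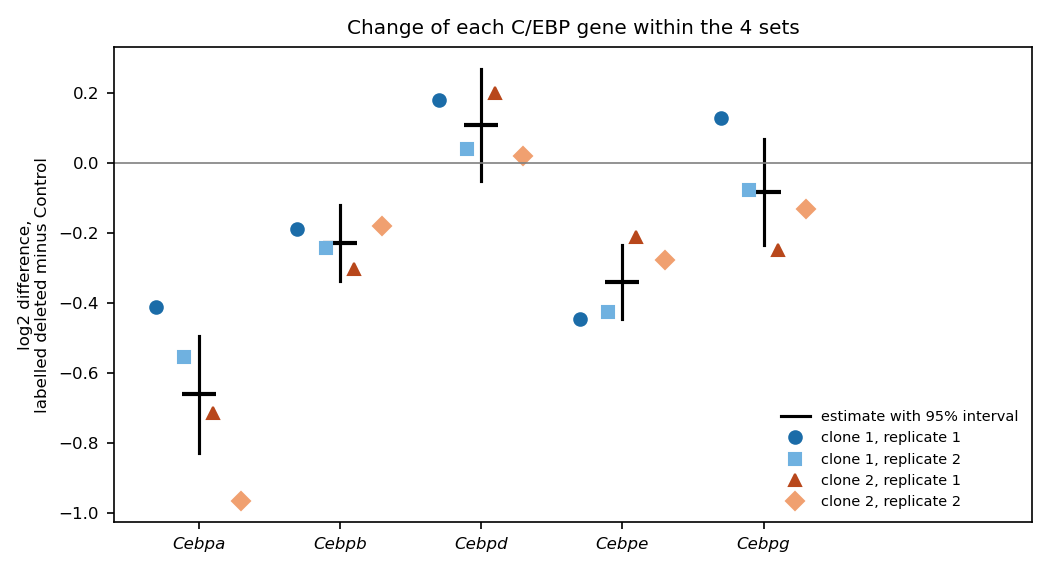
Log2 difference (labelled deleted minus Control) of each C/EBP gene in each of the 4 sets (points), with the estimate of the paired fit and its 95% interval (black). The Cebpa estimate of -0.66 is the lowest, and the intervals of Cebpd and Cebpg include 0.

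**Figure D3:**
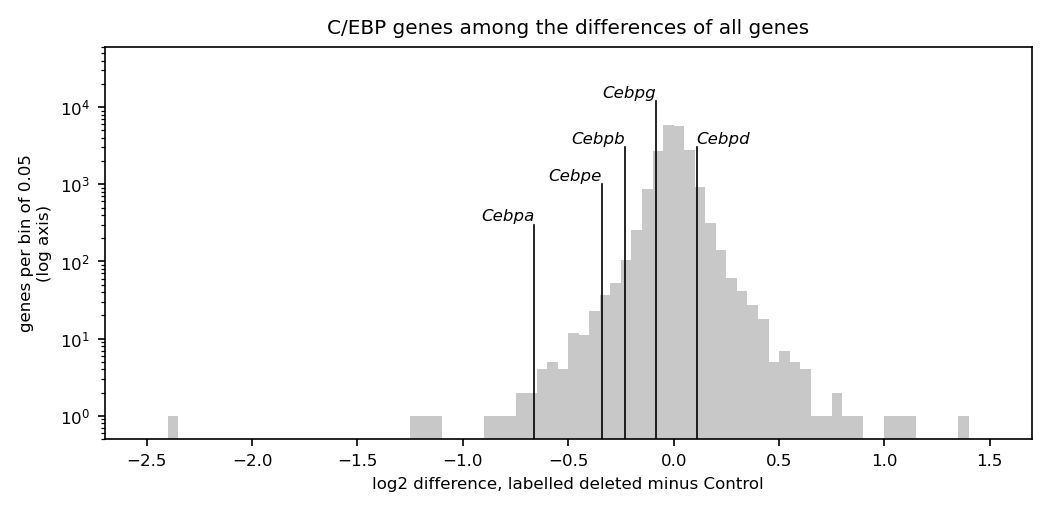
Histogram of the log2 differences of all 19938 genes (log axis for the number of genes), with vertical lines at the C/EBP genes. Cebpa lies far out in the lower tail at -0.66, and Cebpd (0.11) and Cebpg (-0.08) lie closest to 0 among the members.

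The clones differed in their starting levels of 2 members. Among Control arrays, Cebpa was 1.62-fold lower in clone 2 (log2 difference, clone 2 minus clone 1, -0.70 ± 0.12, SE, n = 2 arrays per clone; limma adjusted p = 0.00823). Cebpe was 1.36-fold higher in clone 2 (0.44 ± 0.08; adjusted p = 0.0138). Cebpb (0.21 ± 0.10), Cebpd (0.04 ± 0.12) and Cebpg (-0.20 ± 0.12) did not pass. Over all genes 3.97% passed in this comparison, which is made between 2 clones only.

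The order of the 4 conditions follows from this. For Cebpa the means ran from 9.70 in clone 1 controls through 9.22 in clone 1 labelled deleted and 9.0 in clone 2 controls to 8.16 in clone 2 labelled deleted, and no neighbours overlapped. For Cebpe they ran from 10.37 in clone 2 controls through 10.12 in clone 2 labelled deleted and 9.92 in clone 1 controls to 9.49 in clone 1 labelled deleted, again without overlap. The share of all genes whose 4 conditions were likewise apart was not counted, so how common such an order is cannot be read here. For Cebpb the clone 1 controls (9.27) and the clone 2 cultures labelled deleted (9.23) overlapped, between 9.48 in clone 2 controls and 9.05 in clone 1 labelled deleted. For Cebpg both clone 1 conditions overlapped (8.60 and 8.57), above 8.38 in clone 2 controls and 8.18 in clone 2 labelled deleted. For Cebpd all 4 means lay between 7.39 and 7.53. Both conditions labelled deleted overlapped each other, as did both controls, with a narrow gap between them.

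With a separate effect for each clone, Cebpa fell in both. Its log2 difference was -0.48 ± 0.09 (SE, 2 sets; limma adjusted p = 0.0414) in clone 1 and -0.84 ± 0.09 (adjusted p = 0.000119) in clone 2. Cebpe fell in clone 1 (-0.44 ± 0.07; adjusted p = 0.00975) and was at -0.25 ± 0.07 in clone 2, where it did not pass (0.173). No other member passed in either clone, and the shares of all genes that passed were 0.181% in clone 1 and 0.682% in clone 2. The difference between the clones' changes did not pass for any member. It was -0.36 ± 0.13 for Cebpa (clone 2 minus clone 1; unadjusted p = 0.0131, limma adjusted p = 1.00) and 0.19 ± 0.09 for Cebpe (unadjusted p = 0.0565, adjusted p = 1.00), where 0.0100% of all genes passed.

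The replicate numbers gave like values for both members that fell. Cebpa was at -0.56 in the sets of replicate number 1 and at -0.76 in those of number 2, and Cebpe was at -0.33 and -0.35. All 4 values passed, with limma adjusted p between 0.00183 and 0.0316. Of all 19938 genes, 192 passed within number 1 (139 higher, 53 lower) and 165 within number 2 (46 higher, 119 lower). The difference between the replicate numbers did not pass for any member, with unadjusted p from 0.170 for Cebpa upward. In that comparison limma passed 0% of all genes after adjustment and 3589 had an unadjusted p under 0.05. Across all genes, set differences correlated at r = 0.45 and 0.31 between the clones' sets of the same replicate number, and at 0.08 and -0.13 between sets of the same clone. The paired fit takes the 4 sets as independent, and its p-values do not carry this likeness.

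The gene lists that follow were chosen with earlier results of these data known, so counts within them are a description. Several settings ended calls in these lists. Without the replicate block, without the variance trend or with all probe sets tested, every call of a gene named from these lists ended. With clone as the only covariate, Cd69 alone among them kept its call. With clone and replicate number as covariates, Spi1, Cst7, Nkg7, Prtn3, Ms4a3, Itgam, Csf3r, Olfm4, Ngp and Ccl3 did not pass. Spi1, Prtn3 and Ccl3 passed within neither replicate number.

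Factors that pair with C/EBP proteins or share their bZIP fold were read from a list of 28 genes, of which 27 were measured. None passed, the median log2 difference was -0.03, and 3 had an unadjusted p under 0.05, beside 6.47% of all genes. Fosl2, an AP-1 subunit, had the smallest p (-0.31 ± 0.08, SE, n = 4 sets; limma adjusted p = 0.162), and it passed at -0.41 without the set of clone 2, replicate 2 (0.00179). Ddit3, which encodes the C/EBP-related factor CHOP, was at -0.02 ± 0.09. Atf4, a stress factor that can pair with C/EBP proteins, was at -0.04 ± 0.05. Ddit3 and Atf4 were named after their values were seen.

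Genes known to control C/EBP expression or activity formed a list of 30, all measured. Of these, 1 passed, downward, beside 0.471% of all genes, and the list median was -0.02. An unadjusted p under 0.05 was found for 6 of the 30, beside 6.47% of all genes. Log2 differences ran from -0.20 for Id2 to 0.29 for Flt3. Neither passed, and both were named after their values were seen. The gene that fell was Spi1, encoding the myeloid factor PU.1 (-0.14 ± 0.03, SE, n = 4 sets; limma adjusted p = 0.0465). That call ended without the set of clone 1, replicate 1 (0.111) or of clone 1, replicate 2 (0.430), after median centring (0.332) and with robust moderation (0.0539). Trib1 (-0.04 ± 0.10) and Trib2 (0.06 ± 0.08), whose products bring C/EBPα to degradation, and Cop1, the ligase they recruit (-0.02 ± 0.06), did not pass and were named after their values were seen.

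Granulocyte lineage genes, among them reported C/EBPα targets, formed a list of 23 measured genes, of which 8 fell, 1 rose and 14 did not pass. The 8 include the member Cebpe and Spi1, both already described above, so they are not separate results. Over all genes, 0.953% passed in either direction and 0.471% were lower. The list median was -0.12, beside 0.00 over all genes, and 15 of 23 were below 0. It was -0.03 in the sets of replicate number 1, where 2 genes passed downward and 1 upward, and -0.12 in those of number 2, where 5 passed, all downward. Of all 19938 genes, 53 passed downward and 139 upward within number 1, and 119 and 46 within number 2. Apart from Cebpe itself, Clec5a, a C-type lectin receptor of myeloid cells, had the smallest p (-0.49 ± 0.08, SE, n = 4 sets; limma adjusted p = 0.00857). The cystatin gene Cst7 fell by 0.17, the granule membrane gene Nkg7 by 0.23 and the neutrophil protease gene Prtn3 by 0.15, with adjusted p up to 0.0267. Ms4a3, a gene of granulocyte and monocyte progenitors, fell by 0.81 ± 0.17 (adjusted p = 0.0484), from sets between -0.31 and -1.81 (SD of set differences 0.69). Without the lowest set, clone 2, replicate 2, it was at -0.47, and its call ended with robust moderation (0.904) and quantile normalization (0.0514). Spi1 and Itgam, encoding the integrin CD11b, completed the genes that fell. Itgam was at -0.29 ± 0.06 and was named after its value was seen. Without the set of clone 1, replicate 2 the calls of Clec5a (0.0749), Cst7 (0.0824), Nkg7 (0.0654), Prtn3 (0.0603) and Itgam (0.279) ended, and without clone 1, replicate 1 those of Prtn3 (0.0877) and Itgam (0.0863). Median centring ended those of Cst7 (0.121), Nkg7 (0.0941), Prtn3 (0.15) and Itgam (0.105).

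The gene that rose was Csf3r, the receptor for granulocyte colony-stimulating factor and a textbook C/EBPα target. Its log2 difference was 0.27 ± 0.05 (SE, n = 4 sets; limma adjusted p = 0.0302), with sets at 0.25, 0.22, 0.38 and 0.21. The call ended without the set of clone 1, replicate 1 (0.0713), clone 1, replicate 2 (0.143) or clone 2, replicate 1 (0.304), and after median centring (0.296). Genes of primary granule proteins moved little where they did not pass, with Mpo at -0.04 ± 0.02, Elane at -0.03 ± 0.02 and Ctsg at 0.03 ± 0.02, all named after their values were seen. Their mean Control levels (13.1, 13.3 and 13.0) lay near the highest value on any array, 13.8. Differences may be understated that close to the top of the scale, which was not tested. Without the set of clone 1, replicate 2 the count for the list was 2 genes, both lower. Without clone 1, replicate 1 it was 5, after median centring 3, and without the variance trend 0.

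Specific granule and late neutrophil genes, among them reported C/EBPε targets, formed a list of 25, of which 23 were measured. The test passed 3 of these, all lower, beside 0.471% of all genes. The other 20 did not pass, and the median was -0.06. Of the 23, 15 were below 0 and 8 above. The highest was Anxa1 at 0.42 ± 0.11 (limma adjusted p = 0.118), named after its value was seen. The mean log2 level of the measured genes ran from 6.82 to 7.51 over Control arrays. Hp, encoding haptoglobin, fell by 0.28 ± 0.04 (SE, n = 4 sets; limma adjusted p = 0.00649). Olfm4, a specific granule glycoprotein gene, fell by 0.45 ± 0.08 (adjusted p = 0.0173), and the neutrophil granule protein gene Ngp by 0.45 ± 0.09 (adjusted p = 0.0305). Ngp was uneven over the sets, at -0.36, -0.55, -0.04 and -0.87. Its call ended with robust moderation (0.476), without clone 1, replicate 1 (0.0667) and without clone 1, replicate 2 (0.0923), and that of Olfm4 without clone 1, replicate 2 (0.0923). Within replicate number 1 Olfm4 was at -0.24 (0.155) and Ngp at -0.20 (0.249), and within number 2 they were at -0.66 and -0.71 and passed. Hp passed within number 1 and not within number 2 (-0.23, 0.0852). The defining specific granule gene Ltf was at 0.07 ± 0.08 and was named after its value was seen. Its mean Control level of 5.49 lay below every array median (6.26 to 6.39), so a fall of Ltf could be missed. The count for the list was 0 without the variance trend, 1 without clone 1, replicate 2 and 5 without clone 2, replicate 2, of which 1 was higher. Within replicate number 1 it was 3, with 2 higher and 1 lower, and within number 2 it was 2, both lower. Of all 19938 genes, 139 were higher and 53 lower within number 1, and 46 and 119 within number 2.

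Inflammatory genes reported as C/EBPβ or C/EBPδ targets formed a list of 25, of which 24 were measured. The test passed 2, both lower, beside 0.471% of all genes. The other 22 did not pass, and the median was -0.00035. The mean log2 level of the measured genes ran from 6.48 to 6.51 over Control arrays, close to the array medians of 6.26 to 6.39. A change in weakly hybridised genes of this list could be missed. Cd69, an early activation marker of leukocytes, fell by 0.45 ± 0.05 (SE, n = 4 sets; limma adjusted p = 0.00129), in 4 of 4 sets from -0.23 to -0.62. The chemokine gene Ccl3 fell by 0.19 ± 0.04 (adjusted p = 0.0298), and did not pass without clone 2, replicate 1 (0.0845) or after median centring (0.120). The list count was 0 without the variance trend, where Cd69 stood at 0.0977, 1 without clone 2, replicate 1 and 4 without clone 2, replicate 2, of which 1 was higher. It was 1 within each replicate number, beside 192 of all 19938 genes within number 1 and 165 within number 2.

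**Figure D4:**
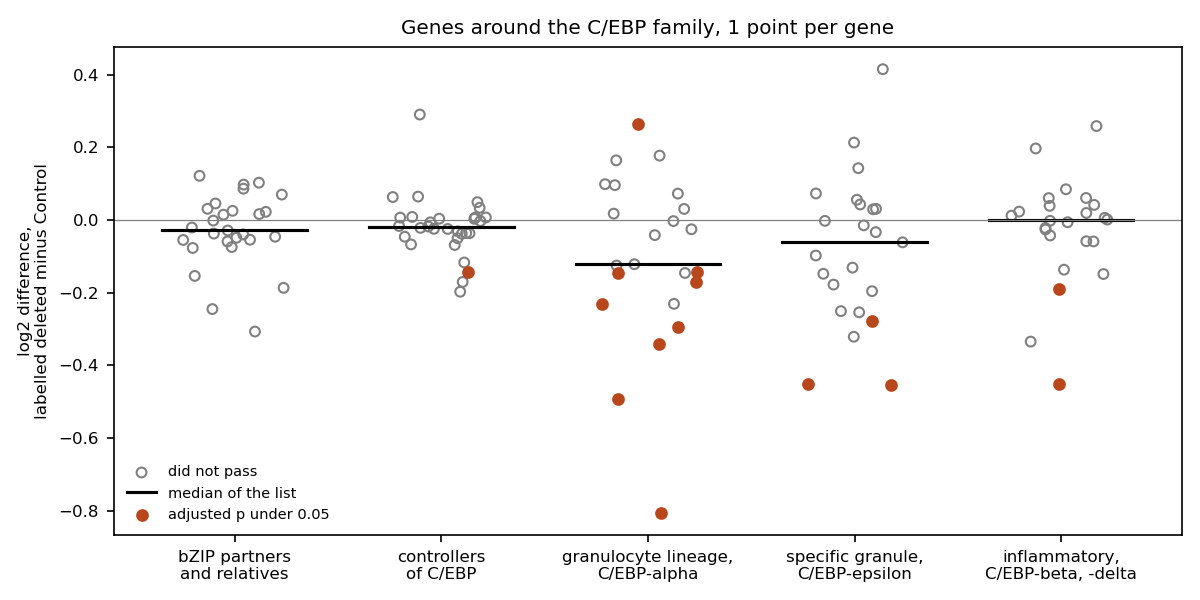
Log2 difference (labelled deleted minus Control) of each measured gene in the lists around the C/EBP family, 1 point per gene and list; filled points passed at an adjusted p under 0.05 and black bars are list medians. The granulocyte lineage list has the lowest median, -0.12, with 8 genes that fell and 1, Csf3r, that rose.

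Cell type markers were read beside these lists, because the makeup of the cultures can move with the group. Of 6 markers of granulocyte and monocyte progenitors, Kit (-0.36 ± 0.05, SE, n = 4 sets; limma adjusted p = 0.00404), Prtn3 and Ms4a3 fell. Mpo (-0.04), Elane (-0.03) and Ctsg (0.03) did not pass. The mean log2 level of all 6 ran from 11.96 to 12.24 over Control arrays and from 11.54 to 12.08 over arrays labelled deleted. None of the 7 mature neutrophil markers passed, with mean levels of 6.50 to 7.63 and 6.47 to 7.80, and Camp had the smallest p (-0.32 ± 0.08; adjusted p = 0.116). None of the 4 measured monocyte and macrophage markers passed (6.63 to 6.75 and 6.71 to 6.83), with Adgre1 at 0.28 ± 0.09, and none of the 6 eosinophil, basophil and mast cell markers (5.99 to 6.21 and 5.82 to 6.12), with Mcpt8 at -0.24 ± 0.07. None passed among 3 erythroid (Gata1, 0.03 ± 0.08), 4 megakaryocyte (Gp9, 0.23 ± 0.09), 3 B cell (Cd79a, 0.08 ± 0.06) and 3 T and NK cell markers (Cd3g, 0.13 ± 0.07). An unadjusted p under 0.05 was found for 2 neutrophil, 1 monocyte, 1 eosinophil, basophil and mast cell and 1 megakaryocyte marker, and for 0 of the erythroid, B, T and NK cell markers. Over all genes, 6.47% had one, and 0.471% passed downward after adjustment. These lists overlap with those above, and their part in the results on Cebpa, Cebpe and their targets was not tested. The table holds no detection calls, so whether a marker was absent cannot be read from it.

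For each member the 3 genes with the most similar profile were sought. The measure was the root mean square difference of log2 values over the 8 arrays, each gene centred on its own mean, among 2982 genes with an SD of at least 0.2. The arrays share clones and sets, so likeness in clone levels counts as much as likeness in change. The profiles include the Control and the labelled deleted arrays, so the differences given for these genes are a description and were not tested. For Cebpa these were Flt1, a receptor for vascular endothelial growth factor (0.21), the interferon-induced membrane protein gene Ifitm1 (0.21) and the choline dehydrogenase gene Chdh (0.22), beside an SD of 0.60 for Cebpa itself. Their log2 differences, labelled deleted minus Control, were -0.38 for Flt1, -0.47 for Ifitm1 and -0.55 for Chdh. Flt1 was uneven, at 0.0008 and -0.15 in clone 1 and at -0.52 and -0.85 in clone 2. Over the sets, Ifitm1 ran from -0.60 to -0.37 and Chdh from -0.71 to -0.33.

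For Cebpe the closest were the mitochondrial sulfur dioxygenase gene Ethe1 (0.07), the cell cycle regulator gene Rgcc (0.09) and the receptor gene Gpr84 (0.09), beside an SD of 0.35. Their log2 differences were -0.30 for Ethe1, -0.25 for Rgcc and -0.19 for Gpr84. For Cebpb they were the glycogen synthase gene Gys1, Gtpbp10 and Plppr3 (0.10 to 0.11, SD 0.17). For Cebpg they were the ornithine aminotransferase gene Oat, Impact and Serp1 (0.06 to 0.07, SD 0.19). For Cebpd, whose own SD was 0.08, the closest (Kansl1l, Snora16a and Serpinb6b) were 0.13 to 0.15 away. For Cebpb, Cebpg and Cebpd, the SD minimum left only genes that vary more than the member itself.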

How the data were processed

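Total RNA from 8 mouse cell cultures was hybridised to Affymetrix arrays after whole-transcript amplification, 1 culture per array, per the labels' protocols. The authors deposited 1 table of log2 expression levels for 35556 probe sets, made with RMA per the submitters' processing notes. No source used here names its version or the chip definition. The log2 base was read from the values (2.60 to 13.8). The platform annotation gave 21789 probe sets 1 gene symbol. No symbol changed through Entrez identifiers, of which 91 had no match. The probe set with the highest mean was kept per gene, leaving 19938 genes.

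Fits used limma 3.58.1 in R 4.3.3, with a variance trend on mean level. The set was a block because the series' design text compares 4 sets; cultures were matched by clone and replicate number in the titles. Within every set both arrays deviated together from their group means (r 0.72 to 0.82). With clone means taken out first, r was 0.44 for clone 1 and 0.25 for clone 2. The fit left 3 residual degrees of freedom, to which moderation added 9.72. Clone and replicate-number effects came from fits with a separate effect for each, and Control clones were compared without the block. Alternatives changed the pairing, variance model, weights, normalization, probe-set choice, filter and sets used. Protein sequences were not used here.

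The members and lists were chosen with earlier results of these data known. The rule named all members, Runx1 and Cbfb, up to 6 passing genes per list with the smallest p (or the 1 smallest of a list with none), and 3 closest profiles per member. Predicted-gene and cDNA-clone symbols were skipped for profiles.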

Additional observations from a re-analysis of the deposited data

Results flagged for a closer look

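Among the named genes, a single array stood apart in 3 of 56 groups of 4 arrays checked. About 1 in 20 would do so by chance if the 4 arrays were unrelated. Here they come from 2 clones and the groups are paired by set, so that rate need not apply. For Cebpd, the clone 2, replicate 1 culture labelled deleted was at 7.57, with the others between 7.49 and 7.50 (gap over range 0.879). For Olfm4, the clone 2, replicate 1 array was high in both groups, at 10.74 among controls (others 8.78 to 8.92; gap over range 0.926) and at 10.59 among those labelled deleted (others 8.08 to 8.45; 0.855). Gata1 was above 0 in both clone 1 sets and below 0 in both clone 2 sets (clone 2 minus clone 1, -0.11), a difference that did not pass (limma adjusted p = 1.00).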

How the results depend on the processing

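The directions of all 5 members held under the 17 alternatives. Those that changed only the pairing, the variance model, the probe-set choice or the filter leave the estimate unchanged. There the direction could not turn, and only the call could change. For Cebpa, 14 alternatives kept the call. It was lost without the replicate block (-0.66, adjusted p = 1), without the variance trend (-0.66, 0.0747) and with all probe sets tested (-0.66, 0.207). The Cebpe call was lost in the same settings (-0.34; adjusted p = 1, 0.124 and 0.226) and with clone as the only covariate (-0.34, 0.0865). Cebpb gained a call with array weights (-0.24), quantile normalization (-0.23) and genes above the median level (-0.23). Without 1 set Cebpb ran from -0.24 to -0.20 and passed in 1 of 4 cases, without clone 2, replicate 2. Cebpd and Cebpg passed in none of the alternatives; they ran from 0.03 to 0.19 and from -0.15 to -0.03.

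The 190 genes past the threshold became 0 without the replicate block (317 unadjusted) and 0 with all probe sets (1834 unadjusted). They became 23 with clone only, 78 with clone and replicate number, 13 without the variance trend and 388 with array weights. Without 1 set the count ran from 98 (clone 1, replicate 2) through 110 (clone 2, replicate 1) to 418 (clone 2, replicate 2). In clone 1 the 36 genes became 0 without the trend (601 unadjusted), 61 after quantile normalization and 59 after centring, and in clone 2 the 136 became 3 without the trend. The 2 genes that differed between clones became 0 without the trend (304 unadjusted) and 12 after centring. Between replicate numbers, 0 became 18 with robust moderation and 316 after centring. The causes were not tested. List counts under alternatives were computed after the data were seen. Signal over background is not given in the table, so weakly hybridised probe sets cannot be told from absent genes.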
